A study of Zea mays with 48 samples.

Results

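The step from 3 h to 6 h of tunicamycin was followed in maize roots by setting the 3 libraries of 6 h against the 3 libraries of 3 h, out of 24 libraries in the series. All plants were 7-day-old seedlings of the inbred line B73 grown in glass bottles, and roots were harvested. Both groups received tunicamycin at 5 µg/ml and differ in the time of treatment. The other groups used here for comparison were 0 h, 12 h, 24 h, 36 h and 48 h of tunicamycin and a 48 h mock, with 3 libraries each. The step has no mock of its own at 3 h or 6 h, so a change brought by the drug and a change brought by 3 more hours in the bottle, including the time of day, cannot be told apart. The labels do not give the number of plants behind a library, and the root identity of the tissue was not checked by marker genes, because the gene identifiers could not be paired with names. In RNA from whole roots, fewer cells of a type and less RNA per cell cannot be told apart.

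Tunicamycin stops the transfer of sugar chains to newly made proteins in the endoplasmic reticulum (ER), and such proteins then fold poorly. Plant cells answer with the unfolded protein response: the membrane protein IRE1 cuts and rejoins the mRNA of a bZIP transcription factor, bZIP60 in Arabidopsis and maize, other bZIP factors are released from the membrane, and genes for chaperones and for the removal of misfolded proteins are switched on. Prolonged stress is known to end in cell death in plants.

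Libraries were assigned to a time by the library name that stands in the label and heads the column of the count table. The sample titles disagree: for 0 of the 12 lane samples of these libraries did the title give the same time as the library name. The libraries held 22365162 (I), 15998602 (II) and 33236105 (III) reads at 3 h and 30516970, 38577551 and 35869795 reads at 6 h, over 23753 genes. Within each time, libraries I and II were much closer to each other than to library III. The chi-square of their counts over genes, divided by its degrees of freedom, was 3.13 for I and II at 3 h against 36.8 for I and III and 29.7 for II and III. At 6 h these values were 3.77, 69.5 and 77.9. A value of 1 would be sampling noise alone. The lanes of 1 library differed from each other by 5.18 to 14.6 on this measure, more than libraries I and II did, so these values do not show whether I and II are separate samples. The series describes its libraries as biological replicates and does not say which plants each came from, so p-values measure only the spread between these libraries. In the first principal component of all 24 libraries, which held 26.6% of the variance, 3 h lay at -15.5, -13.9 and 16.4 and 6 h at 40.8, 40.2 and 31.5 (libraries I, II and III), so the groups did not overlap there. This axis did not follow the time of treatment alone. In every group but 6 h, library III lay above I and II on it. In the mock it lay at 53.1 beside -20.8 and -21.7, and at 12 h at 16.7 beside -51.2 and -45.4.

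Few single genes separated 6 h from 3 h. With the quasi-likelihood test of edgeR on counts, in a model of all 8 groups with Benjamini-Hochberg adjustment over all genes, 3 genes rose and 10 fell at an adjusted p below 0.05. These 13 genes are 0.0547% of the 23753 tested (0.0126% higher and 0.0421% lower). In all 13, the 3 libraries of 6 h lay on one side of the 3 libraries of 3 h, as they did for 3406 genes (14.3%) that were higher and 3651 (15.4%) that were lower over the whole table. At an unadjusted p below 0.05 there were 2887 genes (12.2%), 1095 of them higher and 1792 lower. Both splits turn with the scaling: with library totals in place of TMM, 5020 genes were higher and 2702 lower without overlap, and 1714 were higher and 1350 lower at an unadjusted p below 0.05. The same model called 3726 genes (15.7%) at 3 h against 0 h, 8.28% of all genes higher and 7.41% lower. At 6 h against 0 h it called 6627 genes (27.9%; 14.1% higher and 13.8% lower), and at 12 h against 6 h 2201 (9.27%; 6.30% higher and 2.97% lower). These comparisons share the 3 h or the 6 h libraries with the step.

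The count moved with single libraries and with the model. Leaving out 3 h library I left 0 risen and 5 fallen genes, 3 h library II 1 and 5, and 3 h library III 3 and 29 (edgeR). Dropping 6 h library I or 6 h library II left 0 risen and 1 fallen gene each, and dropping 6 h library III left 3 and 3. For the settings with 0 risen genes, 545, 1020 and 1113 were higher at an unadjusted p below 0.05. With libraries I and II of every group summed into 1, which leaves 2 values a group, 0 genes rose and 1 fell (398 higher and 733 lower at an unadjusted p below 0.05). With only the 3 h and 6 h libraries in the model, 62 genes rose and 316 fell, of which 3 and 8 were among those above, and DESeq2 called 34 and 186. Falls outnumbered rises in each of these fits except the one that dropped 6 h library III, where they were equal.

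**Figure D1:**
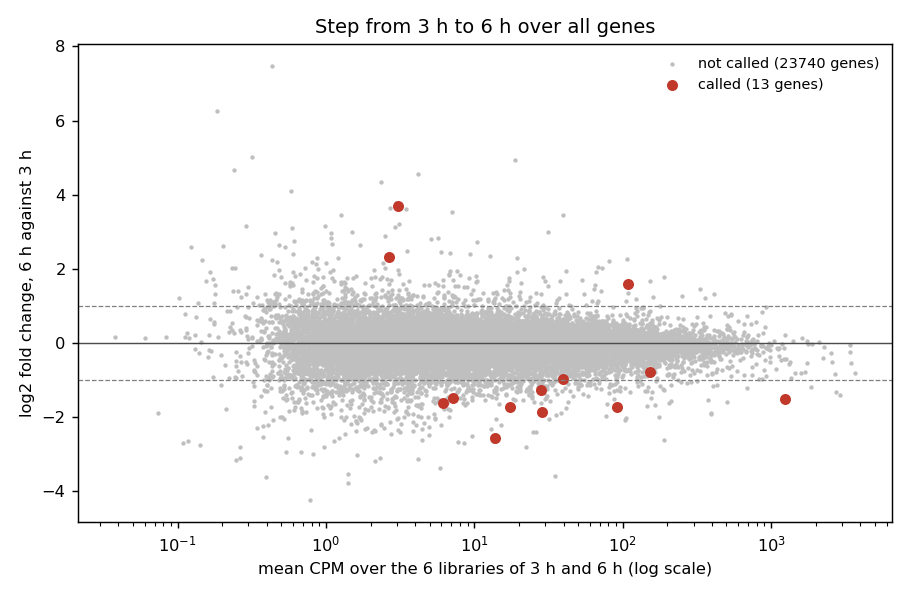
Log2 fold change at 6 h against 3 h (vertical axis) by mean CPM over the 6 libraries (horizontal axis, log scale) for 23753 genes. Red points are the 13 called genes, 3 above and 10 below 0, and dashed lines mark 2-fold changes.

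The risen genes came from low or moderate levels, and their log2 fold changes ran from 1.60 to 3.68. Levels are given in CPM, that is read counts scaled to the TMM-adjusted library size and not to gene length, as mean ± SD of 3 libraries. Neither the files nor the reference table gives names for the identifiers, so at most a pair is printed for each direction, and no role can be given. Zm00001d021120 is the risen gene that met the rule for named genes (at least 5 CPM over the 6 libraries). Its level was 48.1, 56.3 and 58.6 CPM in the 3 libraries of 3 h (I, II and III) and 171.4, 191.0 and 130.6 CPM in those of 6 h. The groups were thus separated by a wide gap, with library III lowest at 6 h and highest at 3 h. The mean went from 54.3 ± 5.53 to 164.3 ± 30.8 CPM, a 3.03-fold rise with a log2 value of 1.60 and an SE of 0.28 (adjusted p = 0.0295, edgeR). This gene stood at 21.5 ± 0.374 CPM before treatment, at 19.2 ± 1.78 CPM after 48 h of mock, reached 619.8 ± 254.0 CPM at 12 h, its highest mean, and was at 314.9 ± 116.8 CPM at 48 h of tunicamycin. Library III gave 327.1 CPM at 12 h, where I and II gave 748.8 and 783.3 CPM. Each of the intervals from 0 to 3 h, 3 to 6 h and 6 to 12 h gave a rise in its own test (log2 fold changes 1.34, 1.60 and 1.92). Neighbouring intervals share libraries.

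Zm00001d049068 had the largest log2 fold change among the called genes. Its mean over the 6 libraries was under 5 CPM, so it was added after its values were seen. It was barely detected at 3 h, with 5, 8 and 18 reads in libraries I, II and III (0.233, 0.522 and 0.552 CPM). At 6 h it had 170, 230 and 214 reads (5.41, 5.81 and 5.97 CPM). All 3 libraries of 6 h were close to each other and about an order of magnitude above those of 3 h. The fitted rise was 12.8-fold, 3.68 on the log2 scale with an SE of 0.57 (adjusted p = 0.0115, edgeR), and its size rests on the few reads at 3 h. From 0 h to 3 h the gene did not pass the test (0.236 ± 0.195 and 0.436 ± 0.176 CPM, adjusted p = 0.527, edgeR). It rose again from 6 h to 12 h, to 73.3 ± 34.9 CPM (log2 fold change 3.68, adjusted p = 0.000375, edgeR). Per kilobase of recovered gene length, Zm00001d049068 had 6.46 CPM at 6 h and Zm00001d021120 had 36.7 CPM. At 12 h the corresponding levels were 82.6 and 138.2 CPM per kilobase.

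The remaining risen gene behaved otherwise. Its level was 1.07, 1.04 and 0.582 CPM in the 3 libraries of 3 h (I, II and III) and 4.87, 4.92 and 3.38 CPM in those of 6 h (a log2 change of 2.31 with an SE of 0.35, adjusted p = 0.0115, edgeR). It had fallen from 2.45 ± 1.18 CPM at 0 h to 0.9 ± 0.275 CPM at 3 h (log2 fold change -1.46, adjusted p = 0.0101, edgeR) and was at 2.38 ± 0.211 CPM after 12 h and, in the mock, at 2.69 ± 0.312 CPM. Its mean at 6 h, 4.39 ± 0.878 CPM, was the highest of its 8 groups, and it did not differ from 0 h in its own test (adjusted p = 0.0556, edgeR).

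The 10 fallen genes had log2 fold changes from -2.57 to -0.79 with a median of -1.56, and 8 of them fell at least 2-fold. For 6 of the 10, the mean at 3 h was the highest of all 8 groups, and for 4 the mean at 6 h was the lowest. Measured against 0 h, 5 of the 10 had been called higher at 3 h (beside 8.28% of all genes), 1 had been called lower (beside 7.41%) and 4 had not passed the test. That comparison shares the 3 h libraries with the step. Of the fallen genes, 3 were called higher again at 12 h against 6 h (beside 6.30% of all genes), which shares the 6 h libraries. Since both comparisons share libraries with the step, nothing is read from these counts.

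Zm00001d019364 fell furthest. Its level was 25.6, 23.5 and 21.6 CPM in the 3 libraries of 3 h (I, II and III) and 4.20, 3.33 and 4.38 CPM in those of 6 h. The libraries of 1 time differed little beside the gap between the times. The mean went from 23.5 ± 1.98 to 3.97 ± 0.560 CPM, a 5.93-fold fall, -2.57 on the log2 scale with an SE of 0.46 (adjusted p = 0.0345, edgeR). Before treatment it stood at 39.6 ± 6.25 CPM, the mock gave 15.4 ± 3.80 CPM, and 12 h gave 7.65 ± 1.30 CPM. Neither 3 h against 0 h nor 12 h against 6 h passed the test for this gene (adjusted p = 0.239 and 0.167, edgeR).

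Zm00001d021775 had 53.6, 43.9 and 37.3 CPM in the 3 libraries of 3 h (I, II and III) and 10.4, 10.7 and 15.8 CPM in those of 6 h. Library III was lowest at 3 h and highest at 6 h, so the step was smallest there. The mean went from 44.9 ± 8.18 to 12.3 ± 3.03 CPM (3.64-fold, or -1.87 on the log2 scale with an SE of 0.31, adjusted p = 0.0203, edgeR). Its level was 29.4 ± 7.44 CPM at 0 h, 21.3 ± 3.72 CPM after 12 h and, in the mock, 18.8 ± 7.94 CPM, and the mean at 6 h was the lowest of the 8 groups.

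The fallen gene with the smallest adjusted p is singled out after its values were seen. It had 1757, 1701 and 2070 CPM in the 3 libraries of 3 h (I, II and III) and 682.8, 653.4 and 603.6 CPM in those of 6 h. The lowest library of 3 h was more than double the highest of 6 h. Its mean went from 188.8 ± 20.2 CPM at 0 h to 1843 ± 198.6 CPM at 3 h and 646.6 ± 40.0 CPM at 6 h, and on to 387.1 ± 21.6 CPM at 12 h and 329.6 ± 32.3 CPM at 48 h, beside 205.3 ± 13.2 CPM in the mock. The rise by 3 h (log2 fold change 3.29), the fall by 6 h (-1.51, SE 0.12, adjusted p = 1.40e-06) and the fall by 12 h (-0.74, adjusted p = 0.00225) each passed the test of edgeR. At 48 h it was still higher than in the mock (log2 fold change 0.68, adjusted p = 0.00763, edgeR). Among the 13 genes it alone was called in all 22 alternative fits that kept the libraries as named, with libraries I and II summed included (adjusted p = 0.0228, edgeR). The 22 include the fit without the low-count filter, which removed 0 genes, so that fit repeats the main one. The other 12 each lost the call in at least 3 of the 6 fits that left out a library of 3 h or 6 h, and each had an adjusted p of 0.869 with libraries I and II summed. In each of the 22 fits in which they were tested, all 13 kept their direction. The fits reuse the same libraries, which did not overlap, so the direction could hardly turn and nothing is read from it.

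**Figure D2:**
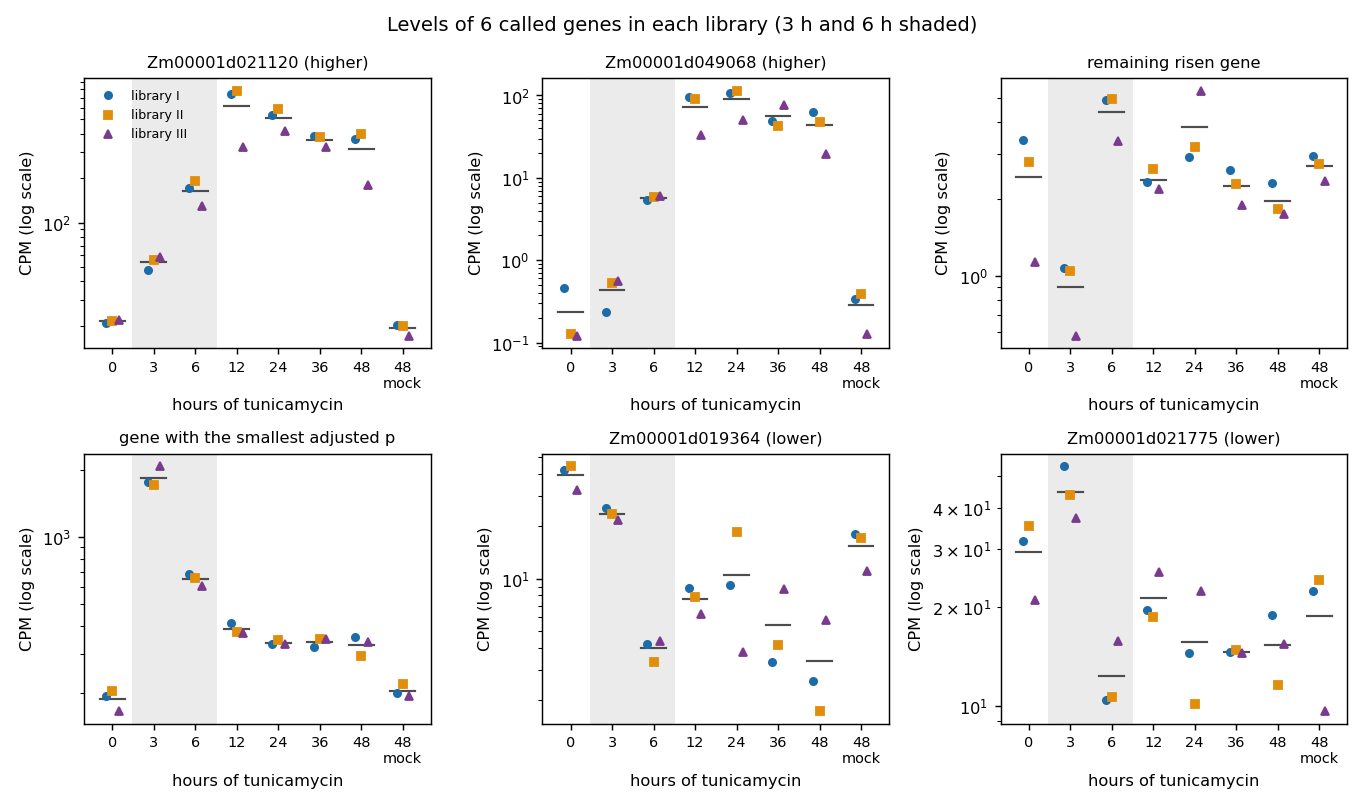
CPM on a log scale (vertical axes, 1 panel per gene) in each library of the 8 groups (horizontal axes, hours of tunicamycin, mock at the right), with a symbol per library number and a bar at the group mean. In all 6 panels the 3 libraries of 6 h lie apart from those of 3 h (shaded), as in Zm00001d019364 with 21.6 CPM or more at 3 h and 4.38 CPM or less at 6 h.

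For genes of at least 5 CPM, the median size of the step was close to its median standard error. That error comes from a spread shared by all 8 groups, not from the 3 h and 6 h libraries alone. Closeness of the medians therefore does not show that the step was no more than noise. Among 18212 genes with a mean of at least 5 CPM over all libraries, the median absolute log2 fold change was 0.17 and the median standard error 0.19. From 0 h to 3 h, an interval of the same length, the median was 0.29, and from 6 h to 12 h it was 0.27, with the same median standard error. It was 0.15 for 48 h against the mock, again with a median standard error of 0.19, and 112 genes were called there. Changes of at least 2-fold in the fit were 2.52% of these genes for 3 to 6 h, 5.63% for 0 to 3 h and 5.43% for 6 to 12 h. The median over all genes in the step was 0.01, and 0.09 with library totals in place of TMM.

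Larger differences leaned to lower levels at 6 h. Genes that differed at least 2-fold with no overlap between the libraries numbered 193 (0.813%) higher and 584 (2.46%) lower, and at least 4-fold 24 and 68. With library totals the 2-fold numbers were 251 and 482. By this description, shares were largest for genes with a mean under 1 CPM over the 6 libraries. There 46 (3.79%) were higher and 90 (7.42%) lower. At 1 to 10 CPM 102 (1.32%) were higher and 302 (3.91%) lower. At 10 to 100 CPM there were 41 (0.325%) and 157 (1.25%), and at 100 CPM or more 4 (0.181%) and 35 (1.58%). Both the higher and the lower genes leaned to short gene models, the lower genes more so. With genes cut by recovered length into 3 classes of nearly equal size, 105 were higher and 401 lower among the shortest 7923 genes, 55 and 141 among the middle 7912, and 33 and 42 among the longest 7918. The classes also differed in level, with medians of 6.02, 18.6 and 31.1 CPM at 3 h from shortest to longest. Across all genes, log2 fold change and length had a Spearman correlation of 0.175, which is a description over genes that share the same 6 libraries. It was 0.214 in the log2 ratio of libraries I and II and 0.062 in that of library III. Other comparisons had such a correlation too, 0.244 for 3 h against 0 h, -0.233 for 12 h against 6 h, 0.208 for 48 h against the mock and 0.213 for the mock against 0 h. The part of gene length or of level in these differences was not tested.

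The most abundant transcripts took a smaller share of reads at 6 h. The 100 genes that were most abundant at 0 h held 12.3%, 12.4% and 10.9% of reads in the 3 libraries of 3 h (I, II and III) and 9.92%, 9.97% and 10.6% in those of 6 h. The groups did not overlap, and library III differed least. The means were 11.9 ± 0.843% and 10.2 ± 0.348% (n = 3 each, two-sided exact permutation test, p = 0.1, the smallest that 3 against 3 allows). Of these 100 genes, 72 were lower and 28 higher at 6 h, where 51.5% of all genes were higher. Their median log2 fold change was -0.15, and 0 were called, beside 0.0547% of all genes. At 12 h the share was 12.3%, 11.9% and 10.8%, and in the mock 11.3%, 11.7% and 10.2%.

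Since libraries I and II lay together, the step was also described in the sum of I and II and in III alone, which have no library in common. Over the 18212 genes, the log2 ratios of 6 h to 3 h from the separate sets had a Pearson correlation of 0.203 and a Spearman correlation of 0.218. For the interval from 0 h to 3 h these were 0.577 and 0.555. Ratios of at least 2-fold were found for 585 genes in I and II and for 1206 in III. They were shared in direction by 137 genes, 40 higher and 97 lower, which is 23.4% of the first list and 11.4% of the second, and 59 genes were at least 2-fold in opposite directions. The 13 called genes had the same direction in both sets. Their libraries of 3 h and 6 h did not overlap, which all but fixes this, so nothing is read from it. Zm00001d021120 had a log2 ratio of 1.92 in I and II and 1.18 in III, Zm00001d049068 had 3.90 and 3.32, Zm00001d019364 had -2.62 and -2.26, and Zm00001d021775 had -2.12 and -1.21.

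**Figure D3:**
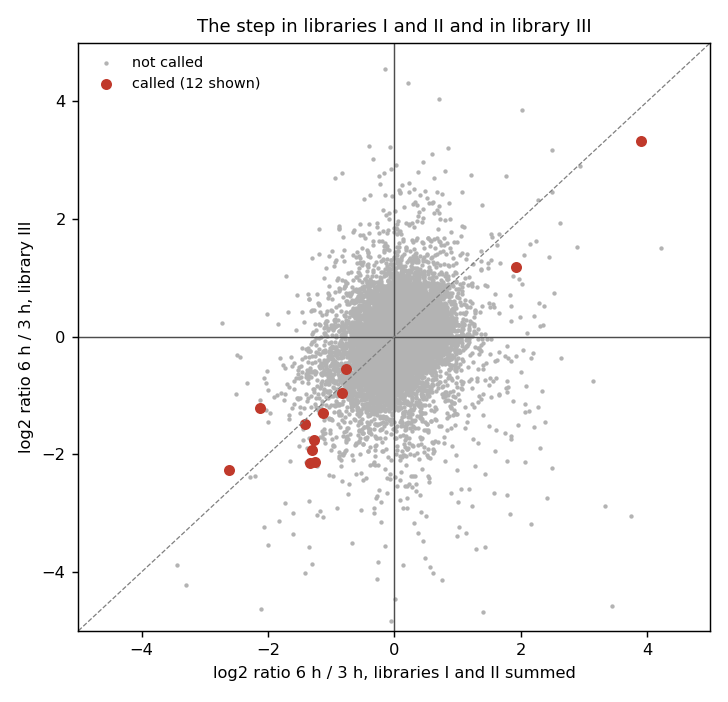
Log2 ratio of 6 h to 3 h in libraries I and II summed (horizontal axis) and in library III (vertical axis) for 18212 genes, with 2 points outside the axes. The cloud is nearly round (Pearson correlation 0.203). The 12 called genes shown in red lie where both ratios have the same sign, which their not overlapping libraries all but fix.

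Genes that were called at later times, in comparisons without any 3 h or 6 h library, were followed through the step. The 80 genes higher at 48 h of tunicamycin than in the 48 h mock had a median log2 fold change of 0.32 from 3 h to 6 h, where all genes had 0.01. Of the 80, 60 were higher at 6 h (75%, beside 51.5% of all genes) and 20 lower. With no overlap between libraries, 37 were higher (46.3%, beside 14.3% of all genes). Counts of higher and lower genes in the lists that follow have the same baseline of 51.5% higher. In ratios by library set, which use library totals, the median was 0.53 in libraries I and II and 0.20 in library III, where all genes had 0.09 and 0.03. The medians by library set given for the lists that follow have the same baseline. Of the 80, 2 passed their own test upwards in the step, Zm00001d021120 and Zm00001d049068 (beside 0.0126% of all genes), and 1 passed it downwards (beside 0.0421%). The 32 genes lower at 48 h than in the mock had a median of -0.66 in the step, with 27 lower and 5 higher, and 18 (56.3%, beside 15.4% of all genes) were lower with no overlap. Their median was -0.55 in libraries I and II and -0.49 in III. Of these 32, 2 passed their own test downwards, Zm00001d019364 among them (beside 0.0421% of all genes).

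Lists from 12 h against 0 h, which called 305 genes (1.28%; 0.914% higher and 0.370% lower), had medians nearer to that of all genes. The 217 genes higher at 12 h had a median of 0.09 in the step (0.29 in I and II, -0.02 in III). In the step 132 of them were higher (60.8%, beside 51.5% of all genes) and 85 lower. Of the 217, 67 were higher with no overlap (30.9%, beside 14.3% of all genes). The 88 genes lower at 12 h had a median of -0.31 (-0.44 and -0.28), with 58 lower and 30 higher. Of the 88, 41 were lower with no overlap (46.6%, beside 15.4% of all genes), 31 of them at least 2-fold. Their 25th percentile was -1.32, beside -1.20 for the genes lower at 48 h than in the mock. From 36 h against 0 h, with 8.68% of genes called (4.19% higher and 4.49% lower), the 996 higher genes had a median of 0.13 in the step (0.34 in I and II, -0.07 in III) and the 1066 lower genes -0.30 (-0.28 and -0.16). From 24 h against 0 h, 18.2% of genes were called (10% higher and 8.17% lower). The 2375 higher genes had a median of 0.06 in the step (0.19 in I and II, -0.02 in III). The 1941 lower genes had -0.08 (-0.07 and 0.09), so in library III the lower list lay above the higher one. Genes called between the mock and 0 h, that is without the drug, also leaned in the step. The 219 genes higher in the 48 h mock than at 0 h had a median of 0.11 in the step. At 6 h 153 of them were higher (69.9%, beside 51.5% of all genes). The 271 genes lower in the mock had a median of -0.20, with 206 lower and 101 lower without overlap (37.3%, beside 15.4% of all genes). In library III alone the medians of these mock lists were -0.01 and -0.05, and in libraries I and II they were 0.28 and -0.18. Of the 13 genes called in the step, 5 were also called at 48 h against mock, which is 38.5% of the 13 and 4.46% of the 112 called there (0.472% of all genes). The mock against 0 h called 3 of the 13, or 23.1%, which is 0.612% of the 490 called there (2.06% of all genes; 0.922% higher and 1.14% lower). The mock differs from 0 h in time and in mock treatment together.

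**Figure D4:**
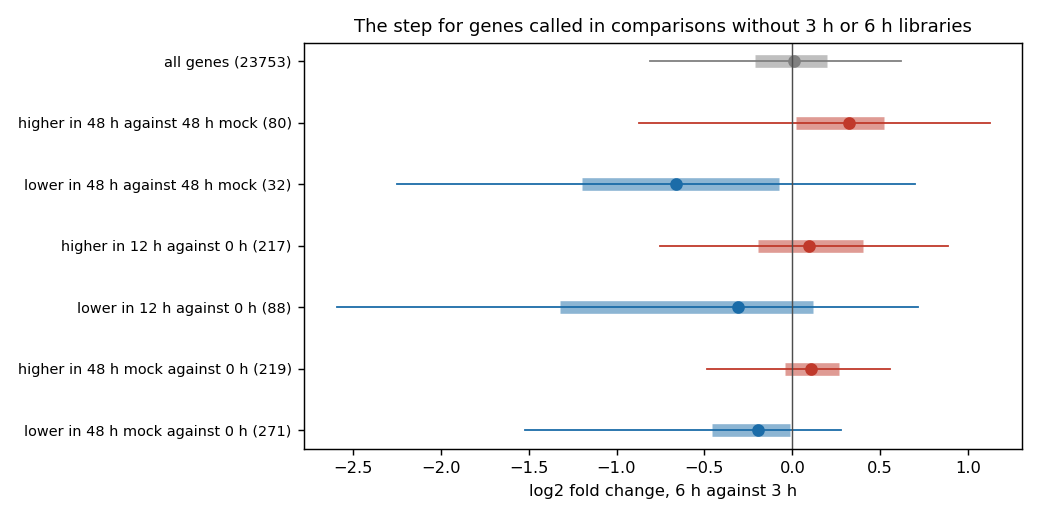
Log2 fold change at 6 h against 3 h (horizontal axis) for all genes and for genes called in comparisons that hold no 3 h or 6 h library, with the number of genes in brackets. Points are medians, thick bars the middle 50% and thin lines the 5th to 95th percentile, and the median is 0.32 for genes higher at 48 h than in the mock and -0.66 for genes lower.

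The step was then compared with the step before it, which lasted equally long. A test of the change from 3 h to 6 h minus the change from 0 h to 3 h found 445 genes (1.87% of 23753) at an adjusted p below 0.05 (edgeR). For 346 genes (1.46%) the later change lay below the earlier, and for 99 (0.417%) above. The 3 h libraries enter both changes with opposite signs, so a turn at 3 h is what this test picks out, and the levels at 0, 3 and 6 h are given as a description. The 346 genes had a median level of 16.1 CPM at 0 h, 42.5 CPM at 3 h and 27.2 CPM at 6 h, with a median log2 fold change of 1.42 to 3 h and -0.67 from there to 6 h. The 99 genes went from 33.0 to 16.1 and 22.2 CPM, with medians of -0.97 and 0.31. The test for the step itself, which shares its libraries with this one, was passed by 7 of the 346 and 1 of the 99 (beside 0.0547% of all genes), and nothing is read from these counts.

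In libraries outside the test, the mock included, the medians of both sets lay between their levels at 0 h and at 3 h. The sets were chosen for a turn at 3 h, which by itself favours such levels elsewhere, so nothing is read from this. The 346 genes had medians of 22.6 CPM at 12 h, 24.6 CPM at 24 h, 23.8 CPM at 36 h and 26.2 CPM at 48 h, beside 22.2 CPM in the mock. The 99 genes had 25.9, 24.3, 27 and 25.1 CPM, beside 26.5 CPM in the mock. At 48 h against the mock, which shares no library with this test, the median log2 fold changes were 0.17 and -0.11. There 4 of the 346 were called higher and 1 lower, and 0 of the 99 were called either way (0.337% and 0.135% of all genes). Of the named genes, Zm00001d021775 passed this test, though its rise from 0 h to 3 h did not pass its own (adjusted p = 0.172, edgeR). Zm00001d021120 had successive log2 fold changes of 1.34 and 1.60 that did not pass it (adjusted p = 0.85, edgeR), nor did Zm00001d049068 (0.86 and 3.68, adjusted p = 0.31) and Zm00001d019364 (-0.75 and -2.57, adjusted p = 0.219). Leaving out 3 h library I, II and III in turn moved the count of 445 to 225, 203 and 160. Leaving out those of 6 h gave 379, 354 and 249, and those of 0 h gave 229, 242 and 375.

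**Figure D5:**
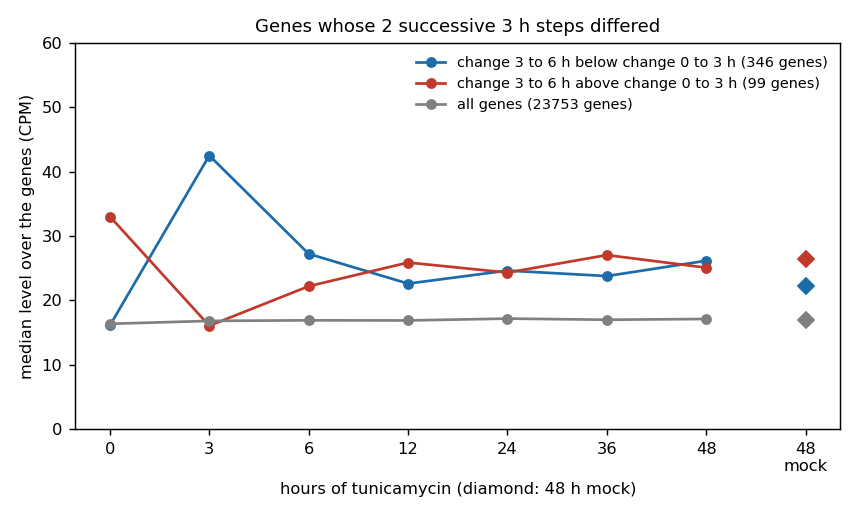
Median level in CPM (vertical axis) at each time of tunicamycin (horizontal axis, not to scale in time; diamonds are the 48 h mock) for the 346 genes whose change from 3 to 6 h lay below that from 0 to 3 h, the 99 genes where it lay above, and all 23753 genes. The 346 genes peak at 42.5 CPM at 3 h and the 99 genes are lowest there at 16.1 CPM.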

How the data were processed

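Total RNA of maize roots was sequenced from both ends after TruSeq preparation, per the labels' protocols. The submitters' processing notes list STAR, featureCounts and edgeR without versions. No source used here gives the genome build, the annotation or the use of strand, so counts of overlapping genes and near-identical copies are uncertain. The deposited count table holds whole-number counts for 24 libraries, and the lowest gene total over all libraries is 152 reads. A second deposited table holds values per lane that act as RPKM on a scaled library size. Solving them gave whole reads for 100% of values within 0.001 reads and lengths for all genes (132 to 128402 bp, whether introns are included is not known), and lane reads summed to the counts with a largest difference of 0. The reference table of 49888 genes held 0 of the 23753 identifiers, so the pathway and cell type lists prepared could not be used, and no sequence is shown.

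Counts were tested with edgeR 4.0.16 in R 4.3.3 (TMM, quasi-likelihood test, all 8 groups, with calls at Benjamini-Hochberg adjusted p under 0.05); its low-count filter removed 0 genes. DESeq2 1.42.0 was an alternative. Each standard error is the log2 fold change over the root of its F statistic. Ratios by library set used library totals and 2 added reads. The fit was also run on simulated counts with known changes. Those libraries were drawn independently, without the closeness of libraries I and II, so that run does not bear on the number of genes called here. Named genes are the 2 largest rises and falls among called genes with no overlap between libraries and at least 5 CPM over the 6 libraries. By this rule 1 risen gene qualified. The members and lists were chosen with earlier results of these data known.

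The library numbers were not taken to pair the samples: deviations of same-numbered libraries of 3 h and 6 h had correlations of 0.085, 0.076 and 0.077. The fit with the number as a block is among the alternatives.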

Additional observations from a re-analysis of the deposited data

Results flagged for a closer look

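The change from 3 h to 6 h differed from the change from 0 h to 3 h, by a test of the difference itself, for 445 genes (edgeR, adjusted p below 0.05), 346 lower and 99 higher in the later interval. Zm00001d021775 was among them, with a difference of the log2 changes of -2.48 (adjusted p = 0.0137, edgeR). Its change was 0.61 from 0 h to 3 h, which did not pass its own test (adjusted p = 0.172, edgeR), and -1.87 from 3 h to 6 h. The gene was named for its large fall in the step, whose libraries this test shares, and that choice favours passing it.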

How the results depend on the processing

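RLE size factors, library totals, a filter of at least 5 CPM in 3 of the 6 libraries and lane 7 alone left the counts of 3 risen and 10 fallen genes within 1.5 times. The fit without the low-count filter repeats the main fit, because that filter removed 0 genes. Library totals moved the median of all genes in the step from 0.01 to 0.086 (log2). Medians of the lists from 48 h against the mock, 12 h against 0 h and the mock against 0 h kept their sign. This held under each of the 3 scalings, a check chosen after seeing the data. RLE gave these lists the same medians as TMM, and library totals moved each of them upwards. The check could thus hardly fail, and nothing is read from it. In library III alone, the lists higher at 12 h and higher in the mock had medians of -0.02 and -0.01. The risen and fallen genes were 62 and 316 with only the 3 h and 6 h libraries in the model, 34 and 186 with DESeq2, 1 and 17 from lane 6, 3 and 22 with the 24 h group out of the model, and 0 and 1 when libraries I and II were summed. With library III of 12 h and of the mock out of the model, an alternative chosen after seeing the data, they were 42 and 196, all 13 genes included. Leaving out a library of 3 h, 6 h or 0 h gave 0 to 3 risen and 1 to 29 fallen genes. Grouping lanes by title gave 303 and 981, with 0 genes shared, since it compares other libraries. The replicate block gave 34 and 151 in all groups, and 50 and 191 with 3 h and 6 h alone. Each library correlated best with its own number, a hint from the data and not the design.

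The 445 genes whose steps differed became 722 with the replicate block, 1000 with DESeq2, 728 without library III of 12 h and of the mock, and 160 to 379 in fits that left out a library. The cause of these moves was not tested. The 4 named genes kept their direction in the 22 alternatives that group libraries by name, the repeat of the main fit without filter included. Their 3 h and 6 h libraries did not overlap and return in these fits, so nothing is read from that. Zm00001d021120, Zm00001d049068, Zm00001d019364 and Zm00001d021775 lost the call in 9, 6, 8 and 6 of the 22. The depth at 3 h limits Zm00001d049068, with 5 to 18 reads a library.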
